A study of Mus musculus with 11 samples.

Results

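Skin of mast cell-deficient recipients of an allogeneic transplant (allo-MCd, 5 mice) was compared with skin of recipients of a syngeneic transplant (3 mice), so 8 of the 11 mice of the series are described here. The comparison asks which transcript programmes in allo-MCd skin lay at, below or above those of syngeneic skin, where donor and host are matched. All 754 genes of the NanoString Myeloid Innate Immunity panel were read, a set of color-coded probes that counts RNA molecules without amplification, and the 6 positive and 8 negative control probes were left out. Every recipient was irradiated with 850 cGy, received bone marrow and spleen cells, and gave skin from the nape of the neck at week 7, of which 100 ng of RNA was loaded. Syngeneic recipients were C57BL/6j, and allo-MCd recipients were B6.Cg-KitW-sh/HNihrJaeBsmGlliJ, which carry an inversion upstream of Kit in every cell, lack mast cells as adults and also lack pigment cells in most of the skin. By the methods, allogeneic cells came from LP/J donors and syngeneic cells from C57BL/6J donors, but the labels name LP/J cells for all mice. As the methods have it, the groups thus differed in donor and in recipient genotype together, with no syngeneic transplant into mast cell-deficient mice among the samples, so the effects of donor cells and of Kit genotype cannot be told apart. Values of allo-WT skin, from 3 C57BL/6j recipients of allogeneic cells, are set beside some results. They share the syngeneic mice with the main comparison and are not an independent check of it.

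Mast cells are tissue-resident granulated cells that depend on the receptor Kit for survival and store proteases and histamine, which they release when antigen crosslinks IgE on the high-affinity receptor. In chronic graft-versus-host disease of the skin, donor T cells and recruited monocytes and macrophages infiltrate the dermis and collagen builds up. Skin also holds resident macrophages and dendritic cells, which present antigen on MHC class II molecules, beside keratinocytes, fibroblasts, endothelium and fat. In bulk skin, fewer cells of a type and less RNA per cell cannot be told apart.

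The deposited values are counts that the authors normalized, called normalized counts here. The geometric mean of 20 housekeeping genes was 1104 in 7 of the 8 mice and 1089 in allo-MCd mouse 5, so the values carry a scaling to these genes. They did not move together between the groups. Differences in mean log2 value, allo-MCd minus syngeneic, ran from -0.87 for Gusb to 0.67 for Eif2b4, with 3 genes lower and 4 higher in all 5 allo-MCd mice than in every syngeneic mouse. The median gene of a mouse was 426, 395 and 450.4 normalized counts in the syngeneic mice and 230.1, 246, 294, 245 and 341 in the allo-MCd mice. Every allo-MCd mouse lay below every syngeneic mouse, and mouse 5 was the highest of its group. Each difference is therefore given on the deposited scale and with every mouse scaled to the same median gene. The counts recovered per mouse summed to 1018368 to 1375989, and between 86.1% and 93.9% of genes were above background, taken as 2 SD over the mean negative control.

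**Figure D1:**
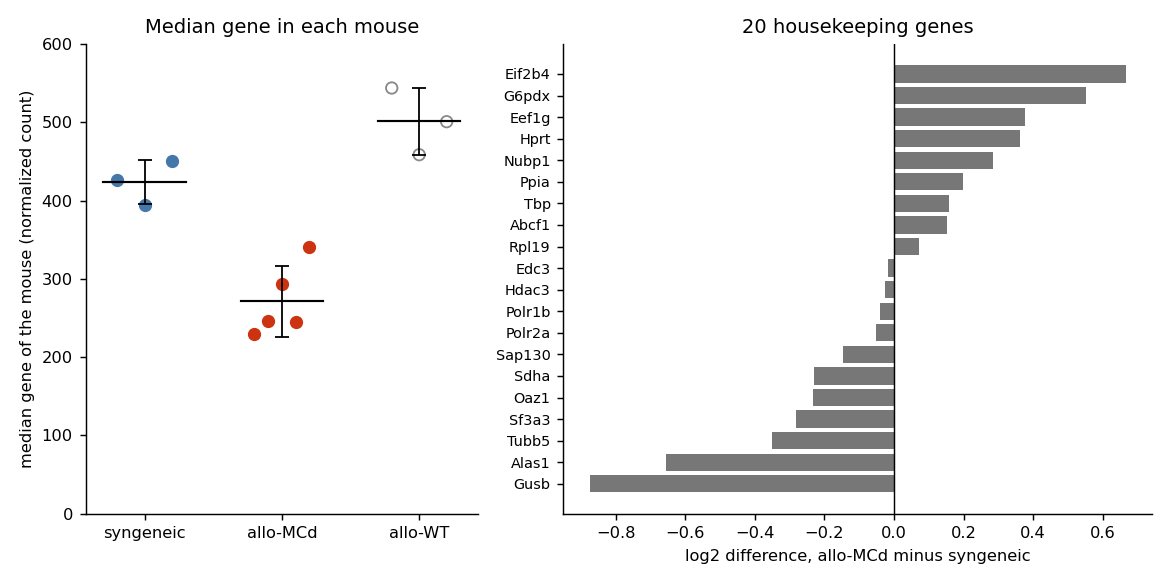
Left, the median gene of each mouse in normalized counts, with group means and SD as bars, for syngeneic (n = 3), allo-MCd (n = 5) and allo-WT (n = 3, open circles) skin. Right, log2 differences of 20 housekeeping genes between allo-MCd and syngeneic skin, which spread from -0.87 to 0.67 around 0.

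After the housekeeping genes were set aside, 696 of 734 genes had at least 20 normalized counts in at least 3 mice and were tested with limma on log2(value + 1), a scale that understates changes of low genes. On the deposited scale 257 genes (36.9%) lay below syngeneic skin in the allo-MCd mice and 32 (4.60%) were higher, at an adjusted p of at most 0.05. The median gene differed by -0.59 on the log2 scale. In what follows, a value in brackets after a gene is its log2 difference, allo-MCd minus syngeneic, on the deposited scale unless median scaling is named, and a pair of medians is that of the deposited scale and then that under median scaling. Under median scaling, where the median difference was 0.06, 80 genes (11.5%) were lower and 117 (16.8%) higher. All 80 were among the 257 and all 32 among the 117, so 80 genes (11.5%) were lower and 32 (4.60%) higher on both scales. A further 177 genes were lower on the deposited scale only, and 85 were higher under median scaling only. Genes near syngeneic skin were taken as those with a 95% interval wholly within 2-fold on both scales, and numbered 99 (14.2%). Of these, 73 were called on neither scale. The remaining 249 genes were called on neither scale and had an interval reaching beyond 2-fold on at least 1 scale. Without syngeneic mouse 1 the genes lower on both scales numbered 31, and without syngeneic mouse 3 they numbered 42, all of them among the 80, while the counts on the deposited scale alone were 166 and 168. Allo-MCd mouse 5 had the highest value of its group for 67 of the 80 genes on the deposited scale and for 37 under median scaling.

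**Figure D2:**
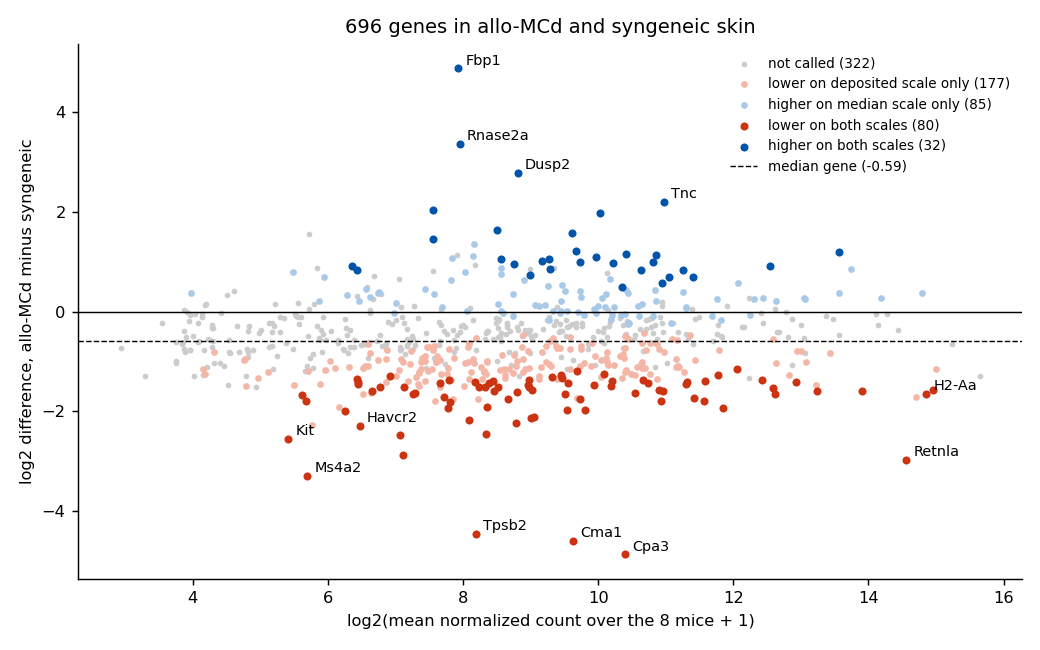
Log2 difference of each of 696 genes between allo-MCd and syngeneic skin (y axis) against the mean level over the 8 mice (x axis, log2 normalized counts). Red points, 80 genes lower on both scales, lie below the dashed line of the median gene at -0.59, and blue points, 32 genes higher on both scales, lie above 0.

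Kit and the genes of mast cell granules lay far below syngeneic skin. Kit, the receptor for stem cell factor, measured 126, 54.1 and 81.6 normalized counts in the syngeneic mice and 12.2, 11.1, 21.7, 7.98 and 17.3 in the allo-MCd mice, where it was above background in none. With each allo-MCd value raised to the background of its mouse, Kit was at least 4.10-fold lower on the deposited scale and at least 2.64-fold lower under median scaling, and its fitted differences were -2.54 (limma adjusted p = 0.00545) and -1.92 (limma adjusted p = 0.0214). The groups did not overlap. Of 11 tested genes of the mast cell list, 9 were lower on the deposited scale (81.8% against 36.9% of all genes) and 7 on both scales (63.6% against 11.5%), with a median of -2.54 on the deposited scale and -1.92 under median scaling, or -2.46 and -1.81 with Kit and Ms4a2 at their bounds. These 7 were Kit, Cpa3, Cma1, Tpsb2, Ms4a2, Hdc and Gata2. The summed level of 6 marker genes was 3769 to 8866 normalized counts in syngeneic and 100.2 to 621 in allo-MCd skin.

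Cpa3, which encodes the granule protease carboxypeptidase A3, measured 4409.8, 2170.2 and 3387 in the syngeneic mice and 226, 38.9, 181, 309 and 29.9 in the allo-MCd mice. It was 29.1-fold lower, the largest fall of any gene tested, at -4.86 on the log2 scale (95% interval -6.60 to -3.13, limma adjusted p = 0.00138). The chymase Cma1 and the tryptase Tpsb2 fell alongside it, by log2 differences of -4.59 and -4.45, with values above background in 4 and 3 of the 5 allo-MCd mice. All 3 proteases were highest in the same allo-MCd mice, 1, 3 and 4, and lowest in mouse 5, where Cpa3 was near the background of 24.9. Among the receptor chains for IgE, Ms4a2 measured 138, 81.1 and 130.1 in syngeneic and 12.9, 8.34, 16.5, 13.6 and 5.76 in allo-MCd skin, no allo-MCd value being above background, and was at least 5.63-fold lower. Fcer1a, the chain that binds IgE, had a difference of -2.28 (limma adjusted p = 0.0174), which did not pass under median scaling (-1.64, limma adjusted p = 0.0767). Without syngeneic mouse 1 or 3 its call was also lost on the deposited scale (limma adjusted p = 0.0677 and 0.0589).

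Hdc, which makes histamine, measured 482, 82.2 and 367 in syngeneic and 29.6, 33.4, 27.9, 34.3 and 39.1 in allo-MCd skin. The 5 allo-MCd mice lay within a narrow range, whereas syngeneic mouse 2 stood far below its group. Gata2, a transcription factor of mast cells and their progenitors, differed by -2.46 on the log2 scale. Siglecf (0.14), a lectin of eosinophils, was not called, and Gata1 was above background in 1 syngeneic and no allo-MCd mouse. In allo-WT skin, with wild-type recipients, Cpa3 measured 6690.1, 1015 and 4127 and Kit 91.3, 11.9 and 75.4. Under median scaling, the calls of Kit (limma adjusted p = 0.106 and 0.0623) and Hdc (0.0636 and 0.0562) were lost without syngeneic mouse 1 or 3.

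Genes of the mononuclear phagocytes formed another group below syngeneic skin. Of 25 tested macrophage and monocyte genes, 17 were lower on the deposited scale (68.0% against 36.9% of all genes), 8 on both scales (32.0% against 11.5%) and none was higher, with medians of -1.26 and -0.61 against -0.59 and 0.06 over all genes. The 8 were Mrc1, Csf1r, Csf1, Clec7a, Tyrobp, Itgam, Cd86 and Cd80. Beyond the 2 leading genes of each list, genes that spell out a count were chosen after their values were seen. Summed levels of 5 macrophage markers were 12419 to 15024 normalized counts in syngeneic and 3873 to 7436 in allo-MCd skin, with no overlap.

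Clec7a encodes the fungal glucan receptor dectin-1 and measured 373, 352 and 463 in the syngeneic mice and 58.5, 111, 136, 120.4 and 165 in the allo-MCd mice. It differed by -1.80 on the log2 scale (95% interval -2.53 to -1.07, limma adjusted p = 0.00199) and by -1.15 under median scaling. Tyrobp, a signalling adaptor of myeloid and natural killer cell receptors, fell from 5959, 5184 and 5034 in syngeneic to 942, 1750.2, 1545, 1488 and 2317 in allo-MCd skin. For both genes the highest allo-MCd mouse, mouse 5, stayed well below the lowest syngeneic mouse. Ccr2, the receptor that brings monocytes from blood into tissue, measured 3129, 3263 and 3971 in syngeneic and 513, 1396, 1176, 877 and 1338 in allo-MCd skin. It was 3.44-fold lower (log2 difference -1.78, limma adjusted p = 0.00161) and the one member of 17 chemokine receptors called lower on both scales (5.88% against 11.5% of all genes), with 5 of them lower on the deposited scale (29.4% against 36.9%). In allo-WT skin Ccr2 measured 7048, 4348 and 6415 and Clec7a 834, 1314 and 600.4, above every syngeneic mouse for both. Without syngeneic mouse 1 or 3 the call of Clec7a under median scaling was lost (limma adjusted p = 0.0513 and 0.0646).

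Retnla stood apart within the macrophage polarization list. This secreted protein of alternatively activated macrophages measured 53422, 52245 and 51532 normalized counts in the syngeneic mice. The allo-MCd mice had 7873, 3125, 6529, 6998 and 11815, a 7.84-fold fall (-2.97 on the log2 scale, limma adjusted p = 0.00403). The syngeneic mice agreed closely and no allo-MCd mouse came near them, while the allo-WT mice spread over 9927, 11701 and 99390.1. Of the 11 genes in the list, 5 were lower on the deposited scale (45.5% against 36.9% of all genes), Retnla alone on both (9.09% against 11.5%). Nos2 (-0.39), a mark of classical activation, was not called, nor was Chil3, one of alternative activation, which was above background in 1 syngeneic and 1 allo-MCd mouse. Under median scaling the call of Retnla was lost when syngeneic mouse 1, 2 or 3 was left out (limma adjusted p = 0.0708, 0.0521 and 0.0608).

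Most genes of Fc receptor signalling and of complement were also below their syngeneic levels on the deposited scale. In the Fc receptor and Syk signalling list 9 of 10 genes were lower on the deposited scale (90.0% against 36.9% of all genes) and 6 on both (60% against 11.5%; median -1.39, and -0.74 under median scaling). Fcgr2b, the inhibitory receptor for IgG, measured 4769, 4275 and 5468 in the syngeneic mice and 1253, 1531, 1377, 1089.6 and 2204 in the allo-MCd mice. Its difference was -1.73 (95% interval -2.26 to -1.20, limma adjusted p = 0.00107) and -1.08 under median scaling (limma adjusted p = 0.00205). The allo-WT values, 19857, 11712 and 16935, were above all syngeneic values, so allo-MCd and allo-WT skin lay on opposite sides of syngeneic skin. Lat2, an adaptor downstream of Fc receptors, differed by -1.51, and the others called on both scales were Fcgr3, Btk, Pik3cg and Was. Lat2 lost its median-scaled call without syngeneic mouse 1 (limma adjusted p = 0.0513).

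Of 7 complement genes, 6 were lower on the deposited scale (85.7% against 36.9% of all genes) and 5 on both (71.4% against 11.5%), with medians of -1.37 and -0.71. C1qa (-1.40), C1qb (-1.37) and C1qc (-1.15) encode the 3 chains of C1q, which starts the classical cascade. The receptor for the anaphylatoxin C5a, C5ar1, measured 995, 687 and 775 in syngeneic and 243, 355, 326, 163 and 449 in allo-MCd skin, with no overlap. C3ar1, the receptor for C3a, measured 1502, 1947 and 1420.2 in syngeneic and 368, 778, 567, 605 and 681 in allo-MCd skin, again with no overlap on the deposited scale, although the groups met under median scaling. Both receptors differed by nearly the same amount on the log2 scale, -1.48 and -1.46 (limma adjusted p = 0.00363 and 0.00176). C3 itself was not called (-0.82). Under median scaling C5ar1 kept its call only when allo-MCd mouse 2 or 5 was left out (limma adjusted p of 0.0536 to 0.152 for the others), and C3ar1 only when allo-MCd mouse 2, 4 or 5 was (0.0524 to 0.11).

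Of 22 antigen presentation genes, 10 were lower on the deposited scale (45.5% against 36.9% of all genes) and 7 on both (31.8% against 11.5%). The list medians were -0.56 and 0.09, against -0.59 and 0.06 over all genes. Most of the genes called were class II members. These genes, whose products present antigen to CD4+ T cells, were lower in allo-MCd skin for 7 of 8 members on the deposited scale and 6 on both, with medians of -1.52 and -0.86. Genes of class I and of its peptide loading were lower for 2 of 12 members on the deposited scale, H2-M3 and H2-T23, and for none on both, where 36.9% and 11.5% of all genes were. Their medians were -0.33 and 0.33. The division of the antigen presentation list into these classes was made after the values were seen, and the difference between them was not tested. Class II promoters are known to share a row of elements bound by a common regulatory complex, among them the Y box, and since 7 of the 8 genes were lower together on the deposited scale, stretches that hold its letters are shown, H2-Ob among them, the member not called. They come from the RefSeq promoter table of GRCm38.p6, run 5' to 3' on the strand of the gene, and the capitals mark the letters TGATTGG, searched on both strands.
H2-Aa, chr17:34287852-34287933, minus strand: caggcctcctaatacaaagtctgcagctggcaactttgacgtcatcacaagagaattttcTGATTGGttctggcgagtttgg
H2-Eb1, chr17:34305746-34305827, plus strand: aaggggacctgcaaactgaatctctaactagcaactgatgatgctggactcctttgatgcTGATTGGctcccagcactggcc
H2-DMb1, chr17:34153068-34153149, plus strand: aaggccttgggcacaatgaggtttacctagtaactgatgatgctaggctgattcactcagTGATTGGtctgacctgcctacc
H2-Ob, chr17:34238786-34238867, plus strand: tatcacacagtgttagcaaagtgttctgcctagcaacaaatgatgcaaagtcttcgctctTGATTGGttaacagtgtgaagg
The letters began 50, 61, 63 and 59 bases before the start site in these genes, and 92 bases before it in H2-DMb2, whose stretch is not shown. They were present in 5 of the 6 class II genes with an entry, in 3 of 6 class I genes and in 7.82% of all 32851 windows, where a window covers 300 bases around a start site. A gene was counted if any of its windows held them, so the gene counts and the share of windows are unlike measures. A match describes the letters only. H2-Ob, which has them, differed by -0.58, and H2-DMa, which has an entry without them, was lower on the deposited scale.

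H2-Aa, the alpha chain of I-A, measured 57289, 42678 and 52793 in the syngeneic mice and 11019, 13426, 17989.8, 16301 and 25594 in the allo-MCd mice. The beta chain H2-Ab1 measured 31955, 20992 and 25257 in syngeneic and 5921, 7275, 9716, 8573 and 12877 in allo-MCd skin. All 5 allo-MCd mice fell below all 3 syngeneic mice for both chains, with mouse 1 lowest and mouse 5 highest of the group. Their differences were -1.64 (95% interval -2.28 to -1.01, limma adjusted p = 0.00161) and -1.58 (95% interval -2.19 to -0.97, limma adjusted p = 0.00161). H2-Eb1 (-1.53), the invariant chain Cd74 (-1.57) and the peptide exchange chains H2-DMa (-1.48) and H2-DMb1 (-1.51) lay within a narrow span of them. Ctss, the protease that trims the invariant chain, differed by -1.44. H2-D1, a classical class I heavy chain, measured 22129.9, 17977 and 20241 in syngeneic and 11944, 15303, 18970.2, 18006 and 20219.5 in allo-MCd skin, with overlap. Its interval stayed within 2-fold on both scales (-0.75 to 0.21 and -0.03 to 0.80), while its allo-WT values were 34513, 39969 and 40096. Without syngeneic mouse 1 the median-scaled calls of H2-Aa and H2-Ab1 were lost (limma adjusted p = 0.0604 and 0.0845).

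**Figure D3:**
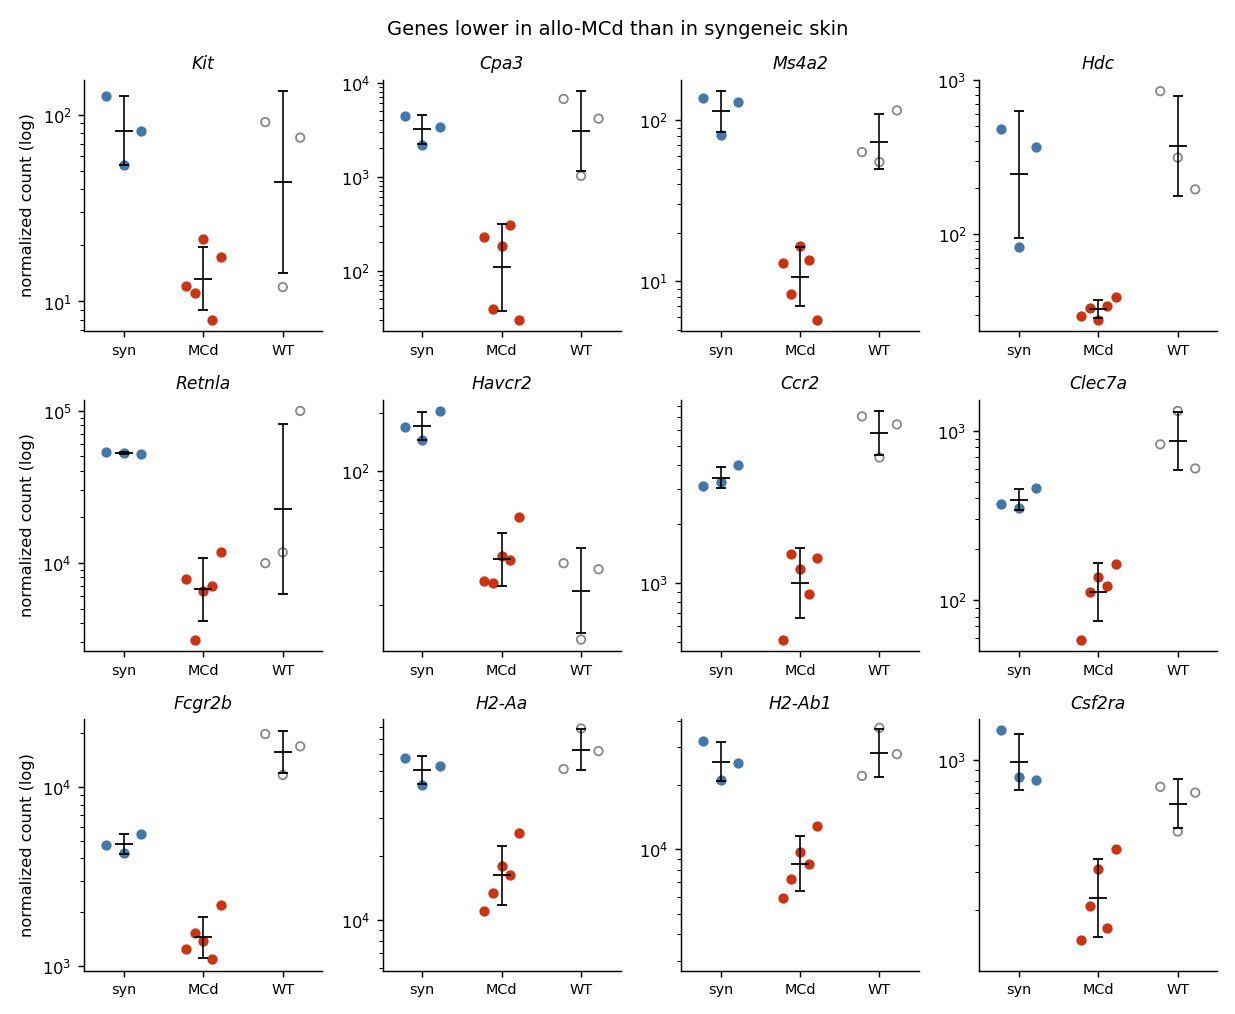
Normalized counts per mouse (log axis) of 12 genes that fell in allo-MCd (MCd, red) against syngeneic (syn, blue) skin, with allo-WT (WT) as open circles, and bars for the geometric mean and 1 SD on the log scale. For all 12 genes every allo-MCd mouse lies below every syngeneic mouse, while allo-WT skin lies above the syngeneic mice for Ccr2, Clec7a and Fcgr2b.

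Among dendritic cell genes, 7 of 14 were lower on the deposited scale (50% against 36.9% of all genes) and 4 on both (28.6% against 11.5%; medians -0.91 and -0.26). The lectin Cd209e, of the DC-SIGN family, measured 621, 637 and 658 in syngeneic and 104, 131, 131, 47.1 and 253 in allo-MCd skin, a 5.45-fold fall (limma adjusted p = 0.00642). Cd83, a surface protein of mature dendritic cells, measured 1288, 365 and 1422 in syngeneic and 170.1, 165, 198, 165 and 335 in allo-MCd skin. Syngeneic mouse 2 lay far under the other 2 syngeneic mice for Cd83, close to allo-MCd mouse 5, and the groups overlapped under median scaling. Irf4 (-1.90) and Batf3 (-1.45), transcription factors of dendritic cell subsets, were the other members called on both scales. Clec9a (-0.56) and Xcr1 (-0.11), marks of cross-presenting dendritic cells, were not called. The median-scaled call of Cd209e needed each syngeneic mouse and allo-MCd mice 1 and 4 (limma adjusted p of 0.054 to 0.0845 when 1 was left out), and that of Cd83 needed syngeneic mice 1 and 3 and allo-MCd mice 1 and 4 (0.0516 to 0.122).

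Of 22 innate sensing genes tested, 12 were lower on the deposited scale (54.5% against 36.9% of all genes) and 3 on both (13.6% against 11.5%), Nlrp3, Tlr9 and Tlr8, with medians of -0.90 and -0.25. Nlrp3, the sensor of an inflammasome, measured 123, 122 and 178 in syngeneic and 21.3, 40.8, 28.9, 31.9 and 56.4 in allo-MCd skin, a 3.99-fold fall (limma adjusted p = 0.00279). Tlr9, the endosomal receptor for bacterial DNA, measured 268, 259.6 and 261 in syngeneic and 59.2, 102, 70.2, 79.0 and 121 in allo-MCd skin (-1.64, limma adjusted p = 0.0013). The syngeneic values of Tlr9 were nearly identical and no allo-MCd mouse reached them. Of the 12 Toll-like receptors alone, 8 were lower on the deposited scale (66.7% against 36.9% of all genes). On both scales 2 were lower, where 11.5% of all genes were, and the medians were -1.06 and -0.41. The adaptors Myd88 (-0.30), Traf6 (-0.17), Pycard (-0.30) and Ripk2 (-0.39) and the inflammasome protease Casp1 (-0.39) had intervals within 2-fold on both scales. The difference between receptors and adaptors was not tested. Casp1 passed the threshold on the deposited scale without allo-MCd mouse 5 (limma adjusted p = 0.0371), and Nlrp3 lost its median-scaled call when syngeneic mouse 3 was left out (0.0623).

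In the T cell list 7 of 16 genes were lower on the deposited scale (43.8% against 36.9% of all genes) and 3 on both (18.8% against 11.5%), Icos, Havcr2 and Cd69, while Cd44 was higher on both (medians -0.97 and -0.33). Havcr2 encodes TIM-3, an inhibitory receptor carried by T cells, mast cells and dendritic cells, and measured 169, 146 and 206 in syngeneic and 26.6, 26.0, 36.2, 34.3 and 57.6 in allo-MCd skin (-2.28, limma adjusted p = 0.00135). Its allo-WT values were as low, 33.0, 13.1 and 30.7. The same held for Cd244, a receptor of natural killer cells, with 426, 548 and 579 in syngeneic, 105, 68.6, 109.5, 110.1 and 222 in allo-MCd and 119, 76.4 and 162 in allo-WT skin. Klrk1, the activating receptor NKG2D, measured 397, 351 and 453 in syngeneic and 55.4, 100.1, 119.8, 133 and 137 in allo-MCd skin (-1.93, limma adjusted p = 0.0013), with allo-WT values of 487, 654 and 533. Thus Havcr2 and Cd244 were below syngeneic skin in every mouse of both allogeneic groups, and Klrk1 in the allo-MCd group. Gzma (-0.29) and Nkg7 (-0.75), products of activated cytotoxic cells, were not called. Cd69, an early activation marker, lost its median-scaled call when syngeneic mouse 1 or 3 was left out, and when allo-MCd mouse 1 or 3 was (limma adjusted p, 0.0528 to 0.118). Neither B cell gene of the panel, Ms4a1 or Fcer2a, had enough counts to be tested.

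Of 31 chemokine ligands, 10 were lower on the deposited scale (32.3% against 36.9% of all genes) and 5 on both (16.1% against 11.5%), and the list median was -0.38, or 0.26 under median scaling. Ccl9, a ligand of CCR1 made by myeloid cells, measured 7721, 5667 and 7050.3 in syngeneic and 1418, 2083, 1619.8, 1468 and 2508 in allo-MCd skin (-1.93, limma adjusted p = 0.00138). Ccl24, an eotaxin that attracts eosinophils, measured 1089, 486 and 978 in syngeneic and 134, 118, 181, 118 and 429 in allo-MCd skin (-2.23, limma adjusted p = 0.00584). Ccl9 was well separated, whereas for Ccl24 allo-MCd mouse 5 came close to syngeneic mouse 2. Ccl6 (-1.74), Ccl17 (-1.78) and the lymph vessel chemokine Ccl21a (-1.65) completed the 5. Cxcl9 (0.86), Cxcl10 (0.88) and Ccl5 (0.93), which interferon and T cell activation raise, had values above 0, and of these Cxcl10 was called under median scaling (limma adjusted p = 0.0355). Allo-MCd mouse 4 was the highest of its group for all 3, and Cxcl9 measured 326, 441 and 302 in syngeneic and 329, 415, 739, 2158 and 496 in allo-MCd skin. Without that mouse the differences were 0.43 for Cxcl9, 0.57 for Cxcl10 and 0.50 for Ccl5, and the median-scaled call of Cxcl10 was lost (limma adjusted p = 0.0561), as it was without allo-MCd mouse 2 or any 1 syngeneic mouse (0.0644 to 0.114). Without allo-MCd mouse 5, Ccl5 was called under median scaling (0.0402). Under median scaling 4 of the 31 ligands were higher (12.9% against 16.8% of all genes), Cxcl10, Cxcl12, Cxcl14 and Ccl25. Cxcl14, which skin epithelium makes, measured 6345, 13236 and 8604 in syngeneic and 17118, 16117, 15806, 18002 and 13889.5 in allo-MCd skin, with no overlap. It was not called on the deposited scale (0.85, limma adjusted p = 0.0913), and its median-scaled call (limma adjusted p = 0.0198) was lost without syngeneic mouse 1 or 3 (0.104 and 0.0753). The call of Cxcl12 was lost without syngeneic mouse 3 (0.0543), and that of Ccl25 when mouse 1 or 3 of the syngeneic group or mouse 1 or 4 of the allo-MCd group was left out (0.0540 to 0.112). Cxcl16, the ligand of CXCR6, was the member near syngeneic skin on both scales, at 609, 981 and 830.3 in syngeneic, 478, 608, 600.2, 581 and 763 in allo-MCd and 2411, 3229 and 1558 in allo-WT skin. Under median scaling the call of Ccl24 depended on syngeneic mice 1 and 3 and on allo-MCd mice 1, 2, 3 and 4, and leaving out any of these gave a limma adjusted p of 0.0507 to 0.125.

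Of 34 interleukin and receptor genes, 16 were lower on the deposited scale (47.1% against 36.9% of all genes) and 4 on both (11.8% against 11.5%), Csf2ra, Il1r2, Il10ra and Csf1 (medians -0.97 and -0.32). Csf2ra, the alpha chain of the receptor for GM-CSF, measured 1386, 836 and 808 in syngeneic and 144, 209, 311, 164 and 386 in allo-MCd skin (-2.11, 95% interval -2.85 to -1.37, limma adjusted p = 0.00138). Il1r2, the decoy receptor for interleukin-1, measured 2885, 2296 and 2565 in syngeneic and 899.8, 618, 748, 814 and 1167 in allo-MCd skin (-1.63, limma adjusted p = 0.00107). Both were separated on both scales, and the allo-WT values of Il1r2 were also low, at 996, 811 and 677. The signalling receptor Il1r1 stayed nearer, at 1535, 1562 and 1825 in syngeneic and 1126, 1099, 1153, 1271 and 1359 in allo-MCd skin, with intervals of -0.87 to -0.03 and -0.16 to 0.57 within 2-fold. Of 21 TNF superfamily genes 6 were lower on the deposited scale (28.6% against 36.9%) and 1 on both (4.76% against 11.5%), Tnfrsf1b (-1.51, 95% interval -2.02 to -0.99), the TNF receptor of leukocytes and endothelium. The widely expressed receptor Tnfrsf1a (-0.47, 95% interval -0.86 to -0.09) was within 2-fold on both scales. Tnf (-0.81) was not called, nor were Il6, Il13 and Il4, which were above background in 4, 2 and 1 of the 5 allo-MCd mice. Tnfrsf1a was itself called on the deposited scale (limma adjusted p = 0.0485), and it kept that call only when allo-MCd mouse 5 was the mouse left out (0.0652 to 0.138 for the others) and lost it with no filter, another limma trend setting, rescaling to housekeeping genes or voom (0.0510 to 0.0665), while a fit of the 8 mice alone kept it (0.0199).

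Interferon response genes were not called on both scales in either direction. On the deposited scale 10 of 25 were lower, or 40% against 36.9% of all genes, and the median was -0.62 against -0.59. Under median scaling none was lower and 1, Irf3, was higher, with a median of 0.01. Irf1 (-0.26) and Isg15 (-0.66), which interferons induce, were not called. Stat6, which carries interleukin-4 signals, measured 2812, 2980.5 and 2867 in syngeneic and 1890.0, 1819, 1897, 1732 and 2467 in allo-MCd skin, with a difference of -0.57 on the deposited scale (limma adjusted p = 0.0231) and of 0.09 under median scaling. In the NF-kB and MAP kinase list 6 of 17 genes were lower on the deposited scale (35.3% against 36.9% of all genes) and none on both (against 11.5%). The phosphatase Dusp6 (0.99, limma adjusted p = 0.00167) was higher on both, or 5.88% of the list against 4.60% of all genes. Under median scaling 5 of the 17 were higher (29.4% against 16.8%), and the list medians were -0.49 and 0.17. Within 2-fold on both scales were Nfkb1, Mapk14, Map2k1 and Bcl10. Stat6 stayed called on the deposited scale only when the mouse left out was allo-MCd mouse 1, 3 or 5 (limma adjusted p of 0.0529 to 0.0685 for the others).

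In a list of 20 adhesion genes, 9 were lower on the deposited scale (45.0% against 36.9% of all genes) and 5 on both (25.0% against 11.5%), the leukocyte integrins Itga4 (-1.43), Itgam (-1.37) and Itgb2 (-1.33), the selectin ligand Selplg (-1.44) and Cd34 (-1.40), of vessels and progenitors. Higher on both scales (15% of the list against 4.60% of all genes) were Alcam (1.16), F11r (0.82), a tight junction protein, and Cd44 (0.91), a hyaluronan receptor. Itgb1, the widely expressed integrin beta chain, measured 7242, 7189 and 8497 in syngeneic and 4335, 5458, 5848, 4595 and 6023 in allo-MCd skin and kept its interval within 2-fold on both scales (-0.97 to -0.13 and -0.22 to 0.44). It was called lower on the deposited scale (limma adjusted p = 0.0392), a call kept only when the mouse left out was allo-MCd mouse 3 or 5 (0.0649 to 0.141 for the others), and it was not called under median scaling (limma adjusted p = 0.63). Integrin ligands on endothelium, Vcam1 (-0.72) and Icam1 (-0.37), were not called. Without syngeneic mouse 3, Itga4 and Cd34 lost their median-scaled calls (limma adjusted p = 0.0623 for each), and Cd34 also without syngeneic mouse 1 (0.0798).

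Of 26 matrix genes tested, 11 were lower on the deposited scale (42.3% against 36.9% of all genes) and 2 on both, Adamts2 and S100a4 (7.69% against 11.5%), while Tnc and Col11a1 were higher on both (7.69% against 4.60%; medians -1.02 and -0.36). Col12a1, which the list does not hold, was also higher on both scales. Tnc encodes tenascin C, a matrix protein of wounded and remodelling tissue, and measured 513, 410.0 and 979 in syngeneic, 2399.5, 4462, 2332, 2848 and 2103 in allo-MCd and 38417, 10686 and 6977 in allo-WT skin. It was 4.60-fold higher in allo-MCd skin (2.20, 95% interval 1.15 to 3.25, limma adjusted p = 0.00411), and every allo-MCd mouse lay between the syngeneic and the allo-WT mice. Col12a1, a collagen that decorates fibrils, measured 226, 334 and 591 in syngeneic, 1159, 2029, 1495, 1525 and 976 in allo-MCd and 1947, 849 and 2182 in allo-WT skin (1.97, limma adjusted p = 0.00208). Here the allo-MCd mice overlapped the allo-WT mice and not the syngeneic ones. Col11a1, a fibril-forming collagen, measured 94.3, 61.7 and 108 in syngeneic and 231, 382, 170.5, 256 and 196 in allo-MCd skin, and 22.8, 14.3 and 109.9 in allo-WT skin.

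The main dermal collagens did not share this direction. Col1a2 differed by -1.70 (limma adjusted p = 0.0275), lower on the deposited scale only, and Col3a1 by -1.28, not called (limma adjusted p = 0.162). Adamts2, which cuts the end off newly made collagens, measured 5014, 2242 and 3023 in syngeneic and 842, 1194, 1115, 804 and 1613 in allo-MCd skin (-1.59, limma adjusted p = 0.00195). Summed levels of 3 fibroblast markers were 83633 to 179631 in syngeneic and 34482 to 81653 normalized counts in allo-MCd skin, and the part of cell number in these values was not tested. Col11a1 stayed called on the deposited scale only when the mouse left out was allo-MCd mouse 3 or 5 (limma adjusted p of 0.0758 to 0.138 for the others). Its median-scaled call was lost without syngeneic mouse 1 or 2 (limma adjusted p = 0.0520 and 0.0519). Adamts2 lost its median-scaled call without syngeneic mouse 1 (0.0745).

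In the TGF-beta list 2 of 6 genes were lower on the deposited scale (33.3% against 36.9% of all genes) and none on both (against 11.5%), with medians of 0.17 and 0.82. Under median scaling 3 were higher (50% against 16.8%). Smad7, the intracellular inhibitor of this pathway, was the 1 member higher on both scales (16.7% against 4.60%). It measured 636, 379 and 574 in syngeneic and 1201, 952, 1098, 1092 and 825 in allo-MCd skin (0.99, limma adjusted p = 0.00344). Its allo-WT values, 466, 457 and 569.8, lay with the syngeneic ones. Smad1 (0.35) and Smad2 (0.28) were called higher under median scaling only, and Tgfb1 (-0.63) and the coreceptor Tgfbr3 (-1.13) were lower on the deposited scale only.

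Epidermal genes had the highest median of the 25 lists with a tested gene. Of 6 tested, 3 were higher (50% against 4.60% of all genes) and none lower on the deposited scale, and 5 were higher under median scaling (83.3% against 16.8%), with medians of 0.88 and 1.53. Tgfa, a growth factor of keratinocytes, measured 358, 359 and 384 in syngeneic and 774, 730.5, 1007, 718 and 612 in allo-MCd skin (1.05, limma adjusted p = 0.0171). Cldn1, a claudin of the epidermal tight junction, measured 2049, 5659 and 4478 in syngeneic and 6996, 6918, 7267, 7679 and 6535 in allo-MCd skin (0.92, limma adjusted p = 0.0482). The allo-MCd mice agreed closely for Cldn1, while the syngeneic mice spread widely with mouse 1 lowest. Jag1, a Notch ligand, differed by 0.83. Cdh1, the 1 keratinocyte marker on the panel, measured 2216 to 4748 in syngeneic and 4652 to 5187 in allo-MCd skin, where the groups met, and was called higher under median scaling only. Cldn1 fell to a difference of 0.49 (limma adjusted p = 0.245) without syngeneic mouse 1 and lost its deposited-scale call without any 1 mouse other than syngeneic mouse 2 (0.0552 to 0.245). It was also lost with no filter on low values, under either other setting of the limma trend and with voom (0.0501 to 0.0568), and Tgfa lost its own without syngeneic mouse 1 (0.0581).

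Of 7 proliferation genes none was called on the deposited scale, and the cyclin Ccnb2 (1.08) and the cell cycle inhibitor Cdkn1a (0.25) were higher under median scaling (28.6% against 16.8% of all genes, list medians 0.65 and 1.30). The mitotic genes Top2a (0.77), Cdc20 (0.71) and Birc5 (0.65) had values above 0 without passing on either scale. Birc5 measured 70.3, 101 and 93.7 in syngeneic and 194, 214, 66.1, 241 and 72.5 in allo-MCd skin. For these 3 genes and Ccnb2, allo-MCd mice 1, 2 and 4 were above every syngeneic mouse, whereas mouse 3 lay within or below the syngeneic range, as mouse 5 did for all but Ccnb2. Without allo-MCd mouse 3, Cdc20 (1.03, limma adjusted p = 0.0374) and Ccnb2 (1.37, limma adjusted p = 0.0184) passed on the deposited scale and all 4 under median scaling (limma adjusted p of 0.0117 to 0.0460). All 4 also passed under median scaling without allo-MCd mouse 5 (0.0171 to 0.0491), and Cdc20 without syngeneic mouse 2 (0.0450). Under median scaling the call of Ccnb2 was kept only when the mouse left out was syngeneic mouse 2 or allo-MCd mouse 3 or 5 (limma adjusted p of 0.0576 to 0.118 for the others). Ttk, a mitotic kinase, was within 2-fold on both scales, at 256, 517 and 398 in syngeneic and 293, 269.8, 209, 302 and 334 in allo-MCd skin. Without syngeneic mouse 1 its difference passed on the deposited scale (limma adjusted p = 0.0479).

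The 10 largest differences above syngeneic skin also held genes of no list. Fbp1, the gluconeogenic fructose bisphosphatase, measured 7.48, 16.2 and 9.92 normalized counts in the syngeneic mice, all at or below background, and 399, 602, 313, 467 and 131 in the allo-MCd mice (limma adjusted p = 0.000354). With the syngeneic values raised to background it was at least 14.5-fold higher in allo-MCd skin, beside a fitted difference of 4.87. The allo-WT mice lay between, at 65.9, 58.5 and 203, apart from allo-WT mouse 3, which exceeded allo-MCd mouse 5. Rnase2a, an eosinophil-associated ribonuclease above background in 2 of the 3 syngeneic mice, measured 23.9, 53.0 and 25.4 in syngeneic, 200.5, 487, 445, 179 and 558 in allo-MCd and 1374, 2258 and 33826 in allo-WT skin (3.36 for allo-MCd minus syngeneic, limma adjusted p = 0.00819). All 5 allo-MCd mice were above all syngeneic mice and below all allo-WT mice.

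Dusp2, a nuclear phosphatase that switches off MAP kinases, measured 121, 64.9 and 100.3 in syngeneic and 655, 625, 788, 822 and 402 in allo-MCd skin, and 213, 295 and 420.3 in allo-WT skin. It was 6.85-fold higher than in syngeneic skin (2.78, 95% interval 2.11 to 3.44, limma adjusted p = 0.000354), and 4 of the 5 allo-MCd mice were above every allo-WT mouse. Vtcn1, an inhibitory ligand for T cells of the B7 family, measured 47.9, 71.4 and 68.4 in syngeneic and 215, 216, 375, 294 and 215 in allo-MCd skin (2.04, limma adjusted p = 0.00195), with allo-WT values of 48.2, 34.6 and 123. Kalrn, an exchange factor for small GTPases, measured 144, 129 and 189 in syngeneic, 580.1, 434, 418, 658 and 338 in allo-MCd and 65.9, 49.0 and 253 in allo-WT skin. For Dusp2, Vtcn1 and Kalrn, then, the allo-MCd group had the highest mean of the 3 groups. Crabp2, which carries retinoic acid, measured 281, 553 and 542 in syngeneic and 839, 1154, 1164, 1008 and 984 in allo-MCd skin (1.22), and Serinc2 differed by 1.56. Crabp2 stayed called on the deposited scale only when the mouse left out was syngeneic mouse 2 or allo-MCd mouse 1 or 5 (limma adjusted p of 0.0504 to 0.145 for the others).

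**Figure D4:**
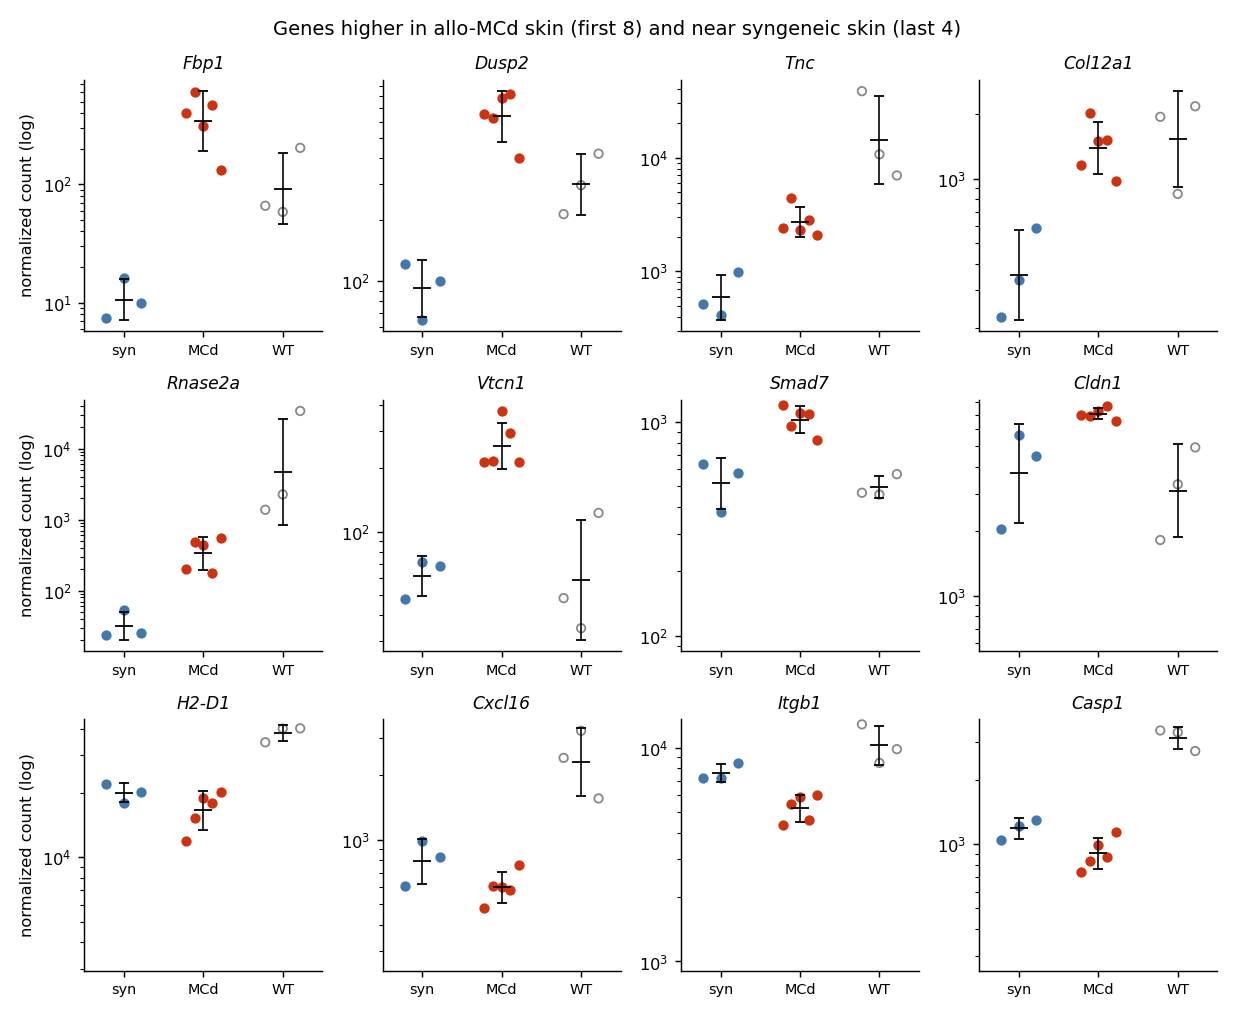
Normalized counts per mouse (log axis) of 8 genes higher in allo-MCd (MCd, red) than in syngeneic (syn, blue) skin and of 4 genes within 2-fold on both scales, with allo-WT (WT) as open circles, and bars for the geometric mean and 1 SD on the log scale. In the first 8 panels the red and blue points do not overlap, and for H2-D1, Cxcl16 and Casp1 they do.

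Among vascular and angiogenic genes 12 of 24 were lower on the deposited scale (50% against 36.9% of all genes), Cd34 alone on both (4.17% against 11.5%), and the vasoconstrictor Edn1 was higher on both (0.96, limma adjusted p = 0.0133). Cd34 measured 13868, 10668 and 13376 in syngeneic and 4693, 3902, 4845, 3542 and 7663 in allo-MCd skin, with no overlap. Summed levels of the 2 endothelial markers were 954 to 1541 in syngeneic and 390.3 to 946 in allo-MCd skin. The growth factor receptor Met was within 2-fold on both scales (-0.81 to 0.28 and -0.07 to 0.85). Without syngeneic mouse 2 the call of Edn1 was lost (limma adjusted p = 0.0557).

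The lipid metabolism list had medians of -0.53 and 0.13, close to those of all genes. Its members ran from -1.34 to 0.50 on the deposited scale. Of its 22 genes, 5 were lower on the deposited scale (22.7% against 36.9% of all genes) and 1 on both (4.55% against 11.5%). That member, Alox5ap, helps make leukotrienes in leukocytes and measured 1188, 944 and 899 in syngeneic and 297, 399.6, 419, 368 and 589 in allo-MCd skin (-1.31, limma adjusted p = 0.00261). Cebpa, a transcription factor of fat and myeloid cells, was within 2-fold on both scales, at 8819.6, 5997 and 8028 in syngeneic and 4322, 5757, 8102, 4289.6 and 6893 in allo-MCd skin. Fabp4 (-0.05), Fasn (-0.09) and Acly (-0.03), of fat cells and fat synthesis, were not called. Allo-MCd mouse 3 was above every other allo-MCd mouse for all 3, and Fasn measured 10386, 6424 and 9279 in syngeneic and 5887, 6003, 36113, 3652 and 7099 in allo-MCd skin. Without that mouse the differences were -0.33 for Fabp4, -0.63 for Fasn and -0.45 for Acly, none of them called. The summed level of 5 adipocyte markers overlapped, at 29696 to 52559 in syngeneic and 21544 to 64529.5 in allo-MCd skin. In the neutrophil list 1 of 11 genes was lower on both scales (9.09% against 11.5%), Il1r2, and S100a8 (0.86) and S100a9 (0.09) were not called. Of 3 muscle genes 1 was lower on both scales (33.3% against 11.5% of all genes), Myod1, which drives muscle identity (-1.68, limma adjusted p = 0.00337) and above background in 3 of the 5 allo-MCd mice. Under median scaling Myod1 kept its call only when allo-MCd mouse 1 or 2 was left out (limma adjusted p of 0.0632 to 0.152 for the others), and Alox5ap only when syngeneic mouse 3 or allo-MCd mouse 2 or 5 was (0.0528 to 0.127).

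**Figure D5:**
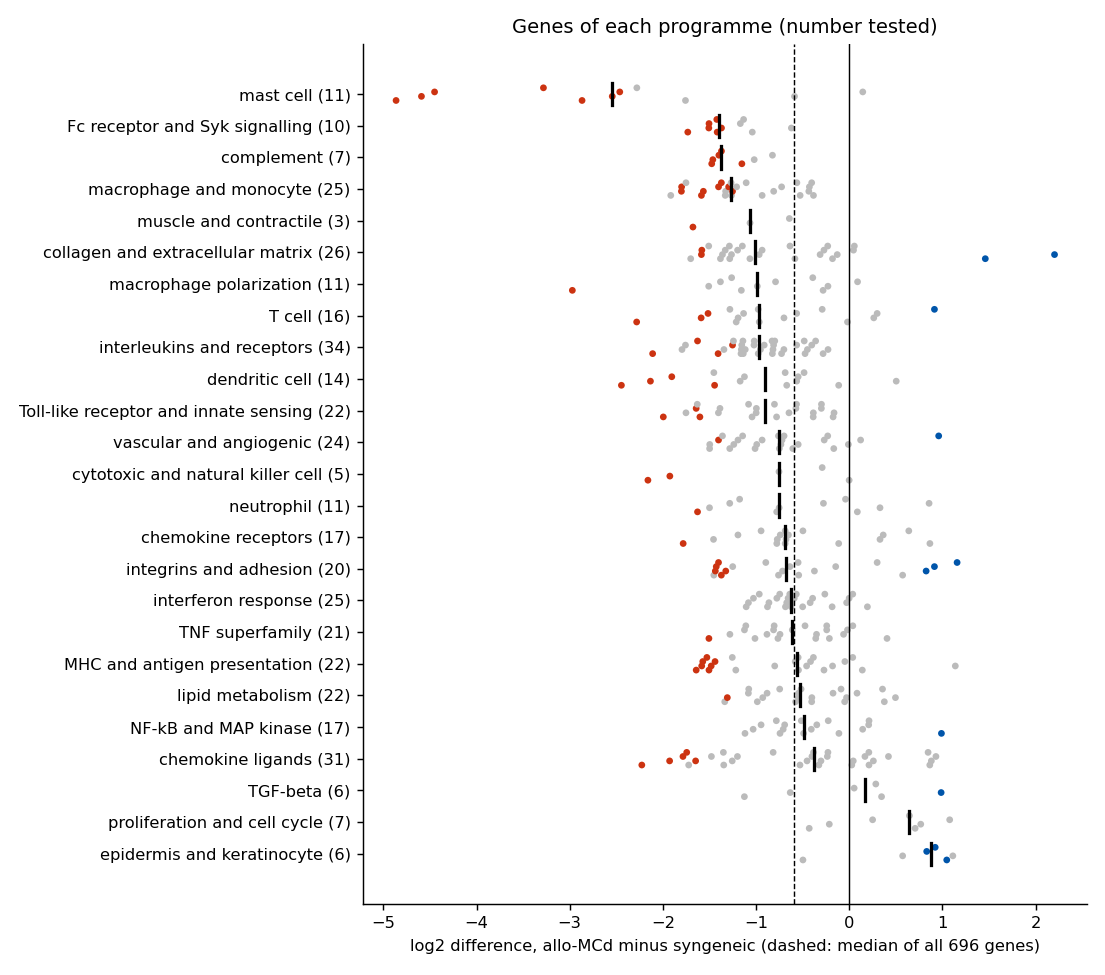
Log2 differences of allo-MCd minus syngeneic skin (x axis) for the tested genes of each programme (y axis, number tested in brackets), with the list median as a black bar, red and blue points for genes lower and higher on both scales, and a dashed line at the median of all genes (-0.59). The mast cell list lies lowest, with a median of -2.54, and the epidermal list highest, at 0.88.

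With 3 against 5 mice, groups that do not overlap have by construction the smallest two-sided exact permutation p that the 56 arrangements allow, 0.0179, which adds nothing to the statement that they do not overlap.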

How the data were processed

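Skin RNA of 11 mice was counted on the NanoString Myeloid Innate Immunity panel. The values as deposited are a linear signal, molecule counts that the authors normalized in nSolver, whose version, reference genes and background treatment are not given in the sources used here. From the values, the scaling goes back to 20 housekeeping genes, which were set aside. Gene values were whole multiples of 1 factor per mouse in 99.87% to 100% of cases, within 0.011, and gave the recovered totals. No replicate pair within a group was as close as sampling noise. Among the allo-MCd mice, mice 1, 2 and 4 were closest, at a chi-square per degree of freedom of 35.9 to 51.8 between their counts. Pairs with mouse 3 or 5 had 102 to 196. Whether transplant or run goes with this split was not tested. The labels name Trizol for RNA extraction and the methods Ribozol.

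Groups were taken from the transplant and mouse strain of the labels. All 3 groups entered 1 fit of limma 3.58.1 (R 4.3.3) with an intensity trend on log2(value + 1), for the 696 genes that reached 20 normalized counts in 3 or more mice, with Benjamini-Hochberg adjustment. Single genes also had a two-sided exact permutation test. The mice came from commercial sources by the methods, and which of them shared a cage is not given in the sources used here. The paper combined independent transplants for other measures, and the transplant of each mouse used here is not given either. The p-values thus measure the spread between these mice. The fit was tested on simulated data with independent noise for each gene and no shift in scale between mice. It recovered 66.3% of genes changed 2-fold, and 3.39% of its calls were false. That test cannot speak to the choice of scale.

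The comparison and the gene lists were chosen with earlier results of these data known. Named were the 10 largest differences in each direction among genes called on both scales whose groups did not overlap, the 2 members of each list with the largest difference called on both scales, the member with the highest level among those within 2-fold, and the mast cell markers. Others were chosen after their values were seen, and lists without room were counted. Of the gene symbols 744 matched RefSeq (GRCm38.p6), 9 matched by synonym and 1 did not match. Alternatives were other scalings, pseudocounts, filters and limma settings, each mouse left out, the mouse number as a block, the methods' test and voom. Values were handled in numpy 2.4.6 and pandas 2.3.3 under Python 3.11.15, and plotted with matplotlib 3.10.9.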

Additional observations from a re-analysis of the deposited data

Results flagged for a closer look

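In 2 of 66 results, counting each named gene and the median gene per mouse, 1 of the 5 allo-MCd mice stood apart from the other 4, where chance flags about 1 group in 20. Stat6 was 2467 normalized counts in allo-MCd mouse 5 against 1732 to 1897 in the other 4, a gap of 0.744 of the range of the group on the log2 scale. Cd83 was 335 in the same mouse against 165 to 198 in the others, a gap of 0.740 of the range. Allo-MCd mouse 5 also had the highest median gene of its group, 341 normalized counts, and a housekeeping mean of 1089 against 1104 in every other mouse.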

How the results depend on the processing

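On the deposited scale 257 genes were lower and 32 higher with a median of -0.59, under median scaling 80 and 117 with a median of 0.0595, and under quantile normalization 99 and 93 with a median of -0.0192. Genes within 2-fold numbered 199, 283 and 291 in that order. No gene lower on the deposited scale was called higher under median scaling. Differences above 0 in place of below it were found under median scaling for Cxcl16 (0.26), Stat6 (0.0886), Stab1 (0.13), H2-D1 (0.39), Casp1 (0.27), Map2k1 (0.31), Il1r1 (0.21), Tnfrsf1a (0.18), Itgb1 (0.11), Adamts1 (0.43), Cebpa (0.26), Met (0.39), Ttk (0.23), and under quantile normalization for Cxcl16 (0.0579), Stab1 (0.18), H2-D1 (0.21), Casp1 (0.0607), Map2k1 (0.13), Tnfrsf1a (0.0540), Adamts1 (0.29), Cebpa (0.10), Met (0.36), Ttk (0.23), with no limma adjusted p under 0.05 there. Of these genes, each within 2-fold on both scales, Stat6, Stab1, Tnfrsf1a and Itgb1 were called lower on the deposited scale. Stab1 kept that call only when the mouse left out was syngeneic mouse 2 or allo-MCd mouse 5 (limma adjusted p of 0.0724 to 0.170 for the others). The methods' test, a 3-group test with Tukey's comparison on the deposited values, gave 181 lower and 30 higher without adjustment across genes, and 65 and 14 after Benjamini-Hochberg adjustment, and 19 and 38 of 65 named genes lost their call by it.

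With each mouse left out in turn, the genes lower numbered 166 to 311, those higher 24 to 38, those within 2-fold 159 to 197, and the median difference lay between -0.67 and -0.52. The genes lower on both scales numbered 31 to 93 and those higher on both 24 to 38. Same-numbered mice did not deviate together (correlations -0.11, 0.11 and -0.06). Such correlations cannot show whether mice shared a transplant or a cage, and the labels do not say whether the numbers pair mice. A fit with mouse number as the replicate block had 249 genes lower, 26 higher and 144 within 2-fold with a median of -0.68, and the genes lower on both scales numbered 47, of which 46 were among the 80. Other pseudocounts, filters, limma settings and a fit of the 8 mice alone kept each of these counts within 1.5 times the value reported. Rescaling to housekeeping genes did so for the genes lower, higher and within 2-fold. The planned count model on recovered counts was not run, since the deposited values are not raw counts, and voom on the recovered counts, chosen after seeing the data, gave 264 lower and 31 higher. The count on both scales under the alternatives was also added after seeing the data, and was not made for the other scalings, the methods' test or voom. Depth limits genes near background, where values have no order. With 3 syngeneic mice, calls near the threshold rest on single mice, as the counts without syngeneic mouse 1 or 3 show.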

Other observations

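Genes outside every list were also called on both scales. Lower in allo-MCd skin were the leukocyte genes Ptprc (-1.38), which encodes CD45, Laptm5 (-1.37), a lysosomal protein of blood cells, and Cytip (-1.98), a regulator of leukocyte adhesion. The receptors Ptafr (-1.65), for platelet-activating factor, and Cysltr1 (-1.50), for cysteinyl leukotrienes, were lower too, as were Cd180 (-1.74) and Cd84 (-1.57). Sfrp4, a secreted Wnt antagonist of connective tissue, measured 2273, 1510.3 and 1186 in syngeneic and 531, 301, 248, 454 and 622 in allo-MCd skin (-1.97, limma adjusted p = 0.00161). The 5 allo-MCd mice were below the 3 syngeneic mice.

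Higher in allo-MCd skin were the Wnt receptor Fzd6 (1.09), the bone and cartilage transcription factor Runx2 (0.83), the inhibitor of differentiation Id1 (1.14), the junction protein Nectin2 (0.85), the cell polarity kinase Prkci (0.57), and Cstb (1.19), a protease inhibitor. Cstb measured 5366, 7226 and 7621 in syngeneic and 14543, 19208, 12752, 16510.1 and 13578 in allo-MCd skin, with no overlap. These genes were chosen after their values were seen.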
